A study of Homo sapiens with 10 samples.

Results

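The 10 genes described here are members of the EGR, NR4A, IER and KLF groups of immediate-early regulators, namely EGR1, EGR2, EGR3, NR4A1, NR4A2, NR4A3, IER2, IER3, KLF6 and KLF10. They were followed in MDA-MB-435, an established human melanoma cell line, on 10 Affymetrix arrays in 5 groups of 2. The groups were untreated cells, cells harvested 1, 6 or 24 h after HGF (hepatocyte growth factor, the ligand of the receptor MET) was added, and cells transduced with ITGB4, the integrin beta 4 subunit. The members were taken by symbol, as every probe set that the platform annotation assigns to a single member gene. Of the 22283 probe sets on the array, 18 met this rule, and they covered 9 of the 10 genes. No probe set carried EGR2 as its only symbol, and EGR2 was not analysed here. The array as a whole named 11963 genes by a single symbol.

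The HGF dose and the vector that carried ITGB4 are not given in the sources used here. The sample descriptions of the ITGB4 arrays contain the word "Mock" although their treatment label names the integrin, no mock-transduced or time-matched untreated group was among the arrays, and the untreated cells serve as the reference for all groups. The study's design text calls the 2 arrays of a group biological duplicates. All values are log2 expression values as the authors normalized them. That normalization brings the arrays to one distribution, and their medians lay between 6.81 and 6.88. A probe set was tested where its second-highest value over the 10 arrays reached 7.3. The 10176 probe sets that did included 10 of the 18 member probe sets, from 7 genes, EGR1, NR4A1, NR4A3, IER2, IER3, KLF6 and KLF10. Calls, higher or lower, were made where the adjusted p of limma (Benjamini-Hochberg over the 10176) was under 0.05. With 2 arrays against 2, an exact permutation test of a single probe set cannot give a two-sided p under 0.333, so each test rests on a spread that limma shares across groups and probe sets.

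Labels were checked against markers first. Of 12 melanocyte markers, 11 had a probe set and 10 were tested (MITF, TYR, TYRP1, PMEL, MLANA, SOX10, GPR143, S100B, RAB27A and MLPH), with a mean level per array between 10.93 and 11.36. Of 12 epithelial markers 2 were tested, KRT18 and ESR1. Of 10 fibroblast markers 3 were tested, and of 6 leukocyte markers none reached the threshold. MITF (-0.81), TYR (-0.48) and RAB27A were lower at 6 h than in untreated cells, and RAB27A also at 1 h. RAB27A, with 4 tested probe sets, was called on only part of them, not on that of highest mean. Of all tested genes, 2.97% were called lower on any probe set at 6 h and 6.45% at 1 h. MITF was higher (0.46) and KRT18 lower (-0.52) at 24 than at 6 h, where 8.15% of all tested genes were higher and 14% lower. DCN was lower (-0.39) at 6 than at 1 h, where 8.15% were lower, but not on its probe set of highest mean. The part of these markers in the results on the members was not tested. The 3 tested ITGB4 probe sets lay between 10.29 and 13.23 on the transduced arrays and between 4.65 and 6.86 on the other 8.

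Immediate-early genes are switched on within minutes of a growth factor signal, without new protein synthesis. Receptor kinases such as MET act through RAS and the ERK kinases on ternary complex factors, which sit with SRF at CArG boxes, and on CREB at cAMP response elements. EGR proteins are zinc-finger activators that bind GC-rich sites. NR4A proteins are orphan nuclear receptors whose activity depends mainly on how much of them is made, and they bind DNA as monomers, as dimers or with RXR. KLF6 and KLF10 are zinc-finger factors of the Krüppel-like family, KLF10 being known as an early target of TGF-beta. IER2 is a small nuclear protein, and IER3 is a stress-response protein with effects on apoptosis and on ERK signalling.

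RefSeq promoter windows (GRCh38.p14) were read for 6 of the members, in 9 windows of 250 bases that end just before a listed transcription start. NR4A2, IER3, EGR3 and KLF10 were not used in this step. The motifs searched, on both strands, were the CArG box, the cAMP response element TGACGTCA and its shorter core TGACG (which every full element also holds), the EGR site GCGNGGGCG and the NR4A monomer site AAAGGTCA. The 3 windows shown are those of tested members that hold a CArG box or TGACG, the letters through which SRF and CREB are known to act on such genes. Each is written in lower case with all matches in capitals.
EGR1 (chr5:138465229-138465478, plus strand): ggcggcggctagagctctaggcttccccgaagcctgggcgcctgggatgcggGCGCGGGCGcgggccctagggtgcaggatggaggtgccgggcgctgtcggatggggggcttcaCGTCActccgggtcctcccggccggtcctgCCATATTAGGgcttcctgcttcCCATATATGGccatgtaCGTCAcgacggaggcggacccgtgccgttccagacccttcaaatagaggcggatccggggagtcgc
IER2 (chr19:13150161-13150410, plus strand): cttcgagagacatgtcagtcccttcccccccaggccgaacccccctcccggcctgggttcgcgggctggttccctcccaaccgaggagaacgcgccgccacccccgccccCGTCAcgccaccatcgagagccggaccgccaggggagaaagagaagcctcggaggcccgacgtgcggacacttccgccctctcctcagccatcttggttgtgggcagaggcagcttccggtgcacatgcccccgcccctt
NR4A3 (chr9:99821635-99821884, plus strand): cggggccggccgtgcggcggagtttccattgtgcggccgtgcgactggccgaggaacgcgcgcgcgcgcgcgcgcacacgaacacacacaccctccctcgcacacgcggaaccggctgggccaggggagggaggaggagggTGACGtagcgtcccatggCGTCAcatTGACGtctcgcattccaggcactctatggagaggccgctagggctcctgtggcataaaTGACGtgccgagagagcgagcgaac
The EGR1 window held 2 CArG boxes, from base -105 to -96 and from -83 to -74 before the start, together with 2 TGACG and 1 GCGNGGGCG. A CArG box was found in 1.16% of 35116 promoter windows of the same length, and the only other member window with one was the third listed for EGR2. The NR4A3 window held 4 TGACG, and the IER2 window held 1, from -140 to -136. TGACG was found in 21.2% of all windows and in 4 of the 9 member windows. GCGNGGGCG, found in 8.41% of all windows, was in those of EGR1 and KLF6. TGACGTCA (1.65% of all windows) and AAAGGTCA (1.05%) were in none of the 9, and both windows listed for NR4A1 held no match to any of the motifs. These matches describe letters in a window and were not tested for binding.

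Among the NR4A receptors, NR4A1 rose at 1 h and was lower again at 6 h, where its arrays spanned the untreated values (difference -0.09, 95% interval -0.37 to 0.19). NR4A1, also known as Nur77, had 3 probe sets, all tested. Probe set 202340_x_at read 8.46 and 8.50 in untreated cells, 9.05 and 9.22 at 1 h, 8.27 and 8.51 at 6 h, 8.36 and 8.42 at 24 h and 8.37 and 8.43 in ITGB4 cells. Only the 1 h arrays stood above all others. The difference at 1 h was 0.65 (SE 0.13, 95% interval 0.38 to 0.93, n = 2 against 2, limma adjusted p = 0.0231), a 1.57-fold rise, against mean levels of 8.48 ± 0.03 (SD) and 9.13 ± 0.12. From 1 to 6 h it fell by 0.74 (SE 0.13, limma adjusted p = 0.00602). Leaving out either untreated array or the first 1 h array ended the call at 1 h, and leaving out the first 6 h array ended the later one. Calls over all tested probe sets also fell in these fits. With single arrays left out, the difference stayed between 0.57 and 0.74 at 1 h and between -0.87 and -0.62 from 1 to 6 h.

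The other NR4A1 probe sets moved less. Probe set 211143_x_at read 7.62 and 7.51 untreated, 7.89 and 7.83 at 1 h, 7.32 and 7.58 at 6 h, 7.49 and 7.48 at 24 h and 7.44 and 7.50 in ITGB4 cells. Its 1 h arrays again lay above the rest, but the difference from untreated cells was 0.30 (SE 0.12, limma adjusted p = 0.159) and was not called, while the difference of -0.41 between 6 and 1 h was (SE 0.12, adjusted p = 0.0427), although 6 of the 10 fits that left out an array lost it. The suffix x_at marks probe sets whose probes may also match other transcripts, and both probe sets with a call carry it. Probe set 210226_at, which does not, read 7.78 and 7.72 untreated, 7.82 and 7.95 at 1 h, 7.79 and 7.64 at 6 h, 7.96 and 7.70 at 24 h and 7.51 and 7.75 in ITGB4 cells. Its 1 h arrays lay above both untreated arrays by a mean of 0.13 (95% interval -0.17 to 0.44, limma adjusted p = 0.550), and it was called in no comparison. With the probe sets of a gene averaged, NR4A1 differed by 0.36 at 1 h (adjusted p = 0.0732).

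NR4A3, or NOR1, had its highest group mean at 1 h and its lowest at 24 h, and was not called. Its tested probe set 209959_at read 7.34 and 7.27 untreated, 7.43 and 7.69 at 1 h, 7.17 and 7.15 at 6 h, 7.06 and 6.92 at 24 h and 7.22 and 7.16 in ITGB4 cells. The 1 h arrays were the highest and the 24 h arrays the lowest of the 10. The differences were 0.25 at 1 h (SE 0.13, limma adjusted p = 0.227), -0.40 between 6 and 1 h (adjusted p = 0.0502) and -0.57 between 24 and 1 h (adjusted p = 0.121). Of its other probe sets, both under the threshold, 207978_s_at read 5.94 and 5.92 untreated and 6.18 and 6.32 at 1 h, and 216979_at stayed between 5.15 and 5.57 on all arrays. NR4A3 is the member nearest above the threshold, with a second-highest value of 7.43, and it passed only through its 1 h arrays, without which that value is 7.27. Its differences from the 1 h group are therefore given as a description.

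NR4A2, or Nurr1, had no 1 h array above both untreated arrays. Its 3 probe sets all lay under the threshold, the closest being 204621_s_at with a second-highest value of 7.20. That probe set read 6.90 and 7.09 untreated, 6.95 and 7.00 at 1 h, 6.58 and 6.82 at 6 h, 6.85 and 7.20 at 24 h and 7.46 and 7.14 in ITGB4 cells. Probe set 204622_x_at read 5.75 and 6.13 untreated, 5.57 and 5.59 at 1 h, 5.39 and 5.06 at 6 h, 5.40 and 5.79 at 24 h and 6.12 and 5.92 in ITGB4 cells. Probe set 216248_s_at read 6.35 on both untreated arrays, 5.88 and 6.09 at 1 h, 5.87 and 6.03 at 6 h, 6.05 and 6.13 at 24 h and 6.45 and 6.31 in ITGB4 cells. In all 3 the 6 h arrays lay below both untreated arrays. With no threshold on level, 204622_x_at was lower at 6 h by 0.72 (limma adjusted p = 0.0404 over all 22215 probe sets that are not controls, of which 1.14% were called lower at 6 h), and the other 2 were not called (0.447 for 204621_s_at and 0.135 for 216248_s_at). Values this low lie close to background.

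**Figure D1:**
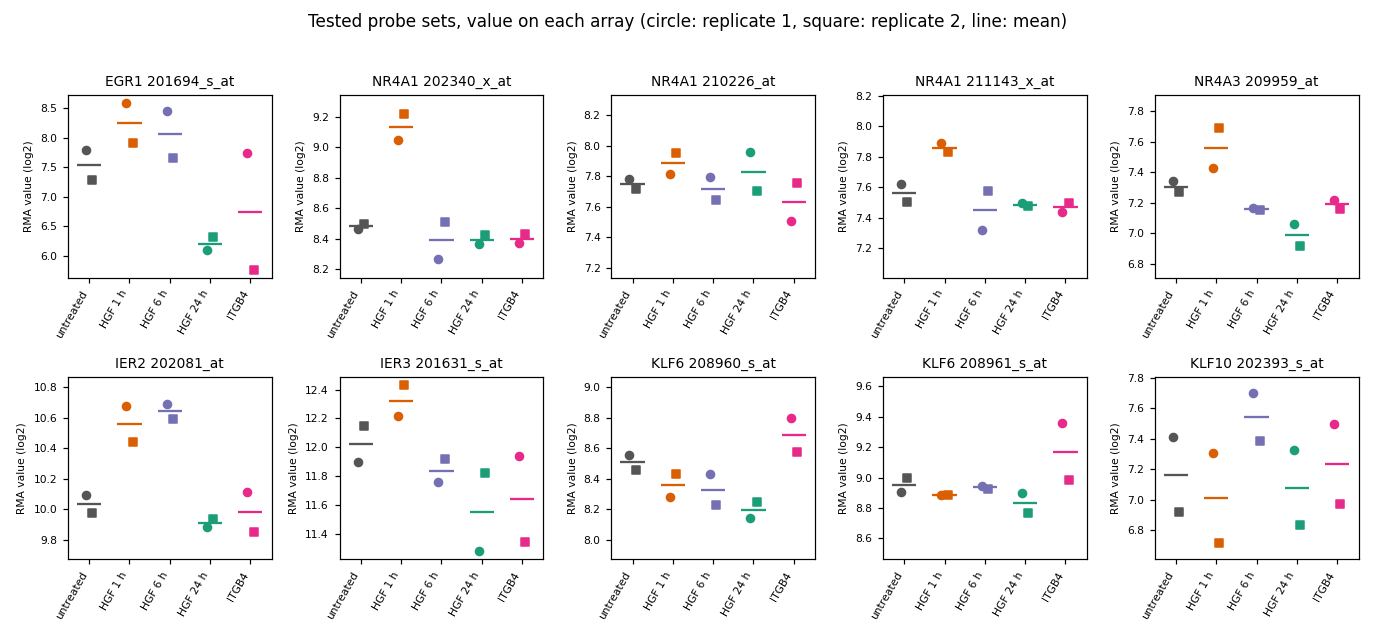
Log2 expression (vertical axis, with its own range in each panel) of the 10 tested member probe sets in the 5 groups (horizontal axis), with a point for each array and a bar for each group mean. The 1 h arrays of NR4A1 202340_x_at (9.05 and 9.22) stand above all others, IER2 is high at 1 and 6 h, and the ITGB4 arrays of EGR1 lie 1.96 apart.

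IER2 rose at 1 and at 6 h and then fell, to a difference of -0.13 from untreated cells at 24 h (95% interval -0.42 to 0.17). Its probe set 202081_at read 10.09 and 9.98 in untreated cells, 10.68 and 10.44 at 1 h, 10.69 and 10.59 at 6 h, 9.88 and 9.93 at 24 h and 10.11 and 9.85 in ITGB4 cells. The 4 arrays at 1 and 6 h lay above the other 6 with no overlap. The rise was 0.53 at 1 h (SE 0.14, limma adjusted p = 0.0474, 1.44-fold) and 0.61 at 6 h (SE 0.14, adjusted p = 0.0285, 1.52-fold), against an untreated mean of 10.03 ± 0.08 (SD, n = 2). From 6 to 24 h it fell by 0.73 (SE 0.14, limma adjusted p = 0.00545), and this fall was called in each of the 10 fits that left out an array (adjusted p from 0.00304 to 0.0489). The call at 1 h was lost in 7 of those 10 fits, being kept only without the second 1 h array or without either ITGB4 array. The call at 6 h was lost without either untreated array or either 6 h array. Calls over all tested probe sets also fell where these were lost. The difference stayed between 0.41 and 0.65 at 1 h and between 0.55 and 0.67 at 6 h.

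Between 6 and 1 h the difference was -0.74 for NR4A1 202340_x_at and 0.08 for IER2 (95% interval -0.22 to 0.38, limma adjusted p = 0.696). Whether these 2 values differ from each other was not tested.

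IER3 was among the more variable members. Its probe set 201631_s_at read 11.90 and 12.15 untreated, 12.22 and 12.43 at 1 h, 11.76 and 11.92 at 6 h, 11.28 and 11.82 at 24 h and 11.94 and 11.34 in ITGB4 cells. The 1 h arrays were the highest and both 24 h arrays lay below the untreated ones. The differences from untreated cells were 0.30 at 1 h, -0.47 at 24 h and -0.38 in ITGB4 cells, and that between 24 and 1 h was -0.77 (SE 0.22, limma adjusted p = 0.160). None was called. Its 2 arrays of a group were up to 0.60 apart, and its pooled within-group SD of 0.279 exceeded that of 92.7% of tested probe sets.

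EGR1 was higher at 6 h than at 24 h, and its duplicates differed widely. Probe set 201694_s_at read 7.78 and 7.28 untreated, 8.57 and 7.91 at 1 h, 8.44 and 7.66 at 6 h, 6.10 and 6.33 at 24 h and 7.73 and 5.77 in ITGB4 cells. Both 1 h arrays lay above both untreated arrays, both 24 h arrays lay below them, and 1 ITGB4 array was at the untreated level while the other was the lowest of all 10. From 6 to 24 h EGR1 fell by 1.84 (SE 0.50, limma adjusted p = 0.0265), a 3.58-fold drop. The 24 h mean of 6.21 ± 0.16 (SD) is under the threshold of 7.3, where signal is close to background, so that this fold is imprecise. The call was lost without either 6 h array or either 24 h array, where calls over all tested probe sets also fell. The difference stayed between -2.23 and -1.45 with single arrays left out. Against untreated cells the differences were 0.71 at 1 h (95% interval -0.38 to 1.81, limma adjusted p = 0.376), 0.52 at 6 h (adjusted p = 0.590), -1.32 at 24 h (adjusted p = 0.404) and -0.78 in ITGB4 cells (adjusted p = 0.966). The difference of -2.03 between 24 and 1 h was not called (adjusted p = 0.125), but it was without either ITGB4 array.

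The pooled within-group SD of this EGR1 probe set was 0.721, above that of 99.99% of the tested probe sets, whose median was 0.144. The 2 ITGB4 arrays, 1.96 apart, contribute most of it, and without either of them the difference between 24 and 6 h had an adjusted p of 0.00168 or 0.0017. The second EGR1 probe set, 201693_s_at, was under the threshold with a second-highest value of 7.10. It read 6.94 and 6.69 untreated, 7.10 and 6.94 at 1 h, 7.32 and 6.76 at 6 h, 6.86 and 6.68 at 24 h and 6.65 and 6.80 in ITGB4 cells, a range of 0.67 against 2.80 for the tested probe set. EGR3, which shares the EGR zinc fingers, had a single probe set, 206115_at, that stayed between 3.86 and 4.07 on all arrays far under the threshold.

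KLF6 was called in no comparison. Probe set 208960_s_at read 8.56 and 8.46 untreated, 8.28 and 8.43 at 1 h, 8.43 and 8.23 at 6 h, 8.14 and 8.25 at 24 h and 8.80 and 8.58 in ITGB4 cells. Probe set 208961_s_at read 8.91 and 8.99 untreated, 8.88 and 8.89 at 1 h, 8.95 and 8.93 at 6 h, 8.90 and 8.77 at 24 h and 9.36 and 8.98 in ITGB4 cells. At 24 h the differences were -0.31 (limma adjusted p = 0.415) and -0.12 (0.744), and in ITGB4 cells they were 0.18 (0.973) and 0.22 (0.966). The remaining probe set, 211610_at, under the threshold, read 6.68 and 6.53 untreated and 6.85 and 6.86 in ITGB4 cells. All 3 KLF6 probe sets had their highest group mean in ITGB4 cells, but none was called there.

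KLF10 was highest at 6 h and was not called. Its probe set 202393_s_at read 7.41 and 6.92 untreated, 7.31 and 6.72 at 1 h, 7.70 and 7.39 at 6 h, 7.32 and 6.83 at 24 h and 7.50 and 6.98 in ITGB4 cells. Replicate 1 lay above replicate 2 in all 5 groups, and the pooled within-group SD of 0.347 exceeded that of 97.5% of tested probe sets. The differences were 0.38 at 6 h against untreated cells (limma adjusted p = 0.424), 0.53 between 6 and 1 h (adjusted p = 0.169) and -0.46 between 24 and 6 h (adjusted p = 0.232).

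**Figure D2:**
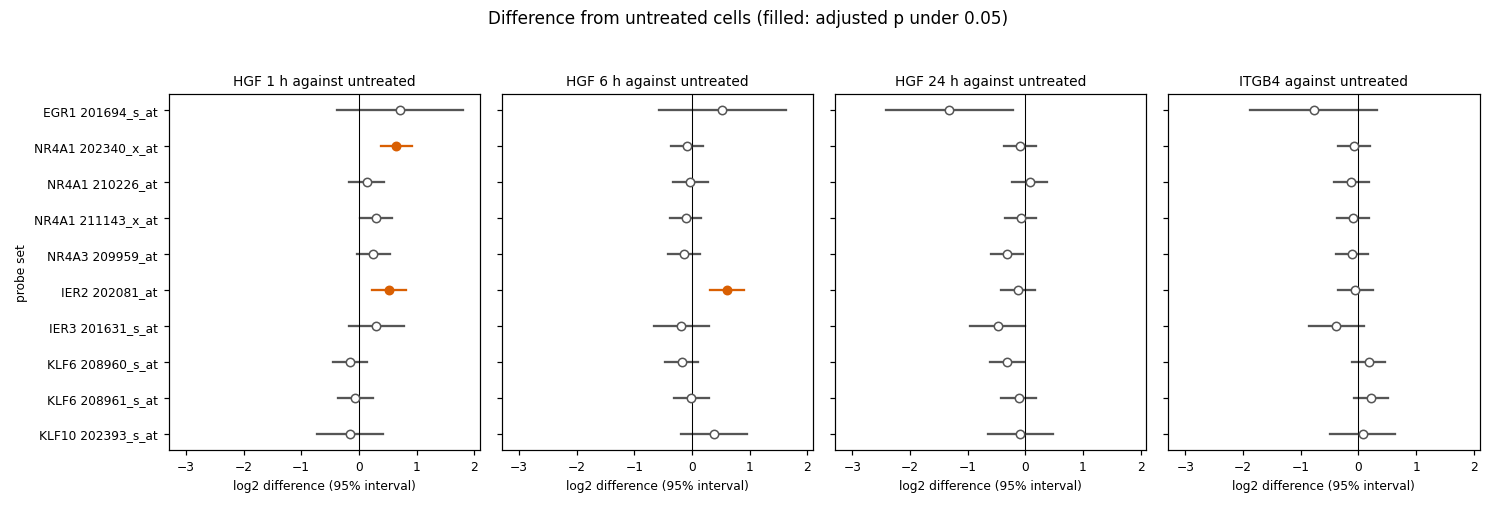
Log2 difference from untreated cells (horizontal axis) of each tested member probe set (vertical axis) at 1, 6 and 24 h of HGF and in ITGB4 cells, with 95% intervals from limma and filled points for called differences. NR4A1 202340_x_at (0.65) and IER2 (0.53) are called at 1 h and IER2 (0.61) at 6 h, and the EGR1 intervals are the widest.

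Over the 10 tested member probe sets, the calls against untreated cells were 2 of 10 higher and 0 lower at 1 h. Of all tested probe sets, 0.58% were called higher there and 5.09% lower. At 6 h 1 of 10 was higher and 0 lower, against 3.88% and 2.33% of all tested. At 24 h 0 of 10 were called, as for all tested probe sets (0%). At an unadjusted p under 0.05 these were 3 of 10 member probe sets and 1134 of all tested probe sets, or 11.1%. In ITGB4 cells 0 members were called, against 0.0491% of all tested probe sets called higher and 0% lower, and at an unadjusted p under 0.05 there were 0 members and 618 probe sets in all. The arrays of 7 member probe sets at 1 h all lay above both untreated arrays and those of 2 below. A gene can count more than once here: every NR4A1 probe set was among the 7, and the 2 were both of KLF6. Of all tested probe sets, 34% lay above and 25.9% below in this way. The 7, and the member median at 1 h given below, include NR4A3, which passed the threshold only through its 1 h arrays. They are therefore a description. At 24 h those of 8 lay below and of 0 above, against 24.2% and 21.8% of all tested. The median member difference was 0.28 at 1 h against 0.06 over all tested probe sets, -0.06 against 0.01 at 6 h, -0.12 against 0.0031 at 24 h and -0.09 against -0.00093 in ITGB4 cells. In a bulk sample, a lower level cannot be told apart as less RNA per cell or fewer cells with it. All 4 comparisons share the 2 untreated arrays.

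Between HGF times, 2 of 10 member probe sets were lower and 0 higher at 6 than at 1 h, both of NR4A1, against 6.4% of all tested probe sets lower and 11.9% higher. At 24 against 6 h 2 were lower, EGR1 and IER2, and 0 higher, against 12.5% lower and 6.95% higher. At 24 against 1 h 0 members were called, where 0.00983% of all tested probe sets were called higher and 0% lower. At an unadjusted p under 0.05 these were 6 of 10 member probe sets and 14.7% of all probe sets in that last comparison. NR4A1 202340_x_at (-0.74, limma adjusted p = 0.0838) and IER2 (-0.65, adjusted p = 0.106) came closest. The median member difference between 24 and 1 h was -0.47, against -0.03 over all tested probe sets. Both 24 h arrays lay below both 1 h arrays in 7 of 10, as in 22.2% of all tested probe sets. The 6, the 7 and this member median include NR4A3, which passed the threshold only through its 1 h arrays. They are therefore a description.

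**Figure D3:**
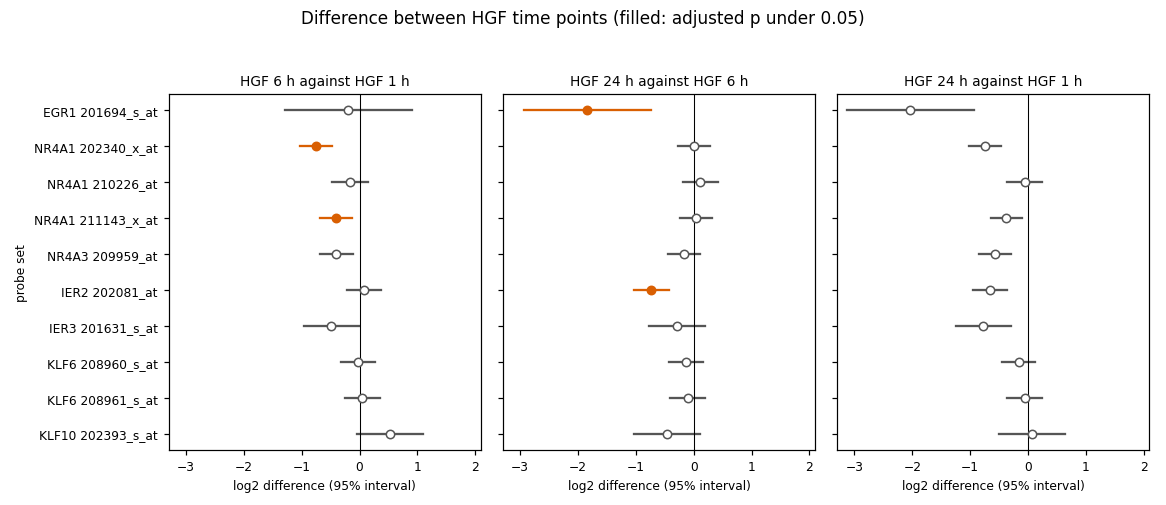
Log2 difference between HGF times (horizontal axis) of each tested member probe set (vertical axis) for 6 against 1 h, 24 against 6 h and 24 against 1 h, with 95% intervals from limma and filled points for called differences. NR4A1 falls between 1 and 6 h (-0.74 and -0.41), and EGR1 (-1.84) and IER2 (-0.73) fall between 6 and 24 h.

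**Figure D4:**
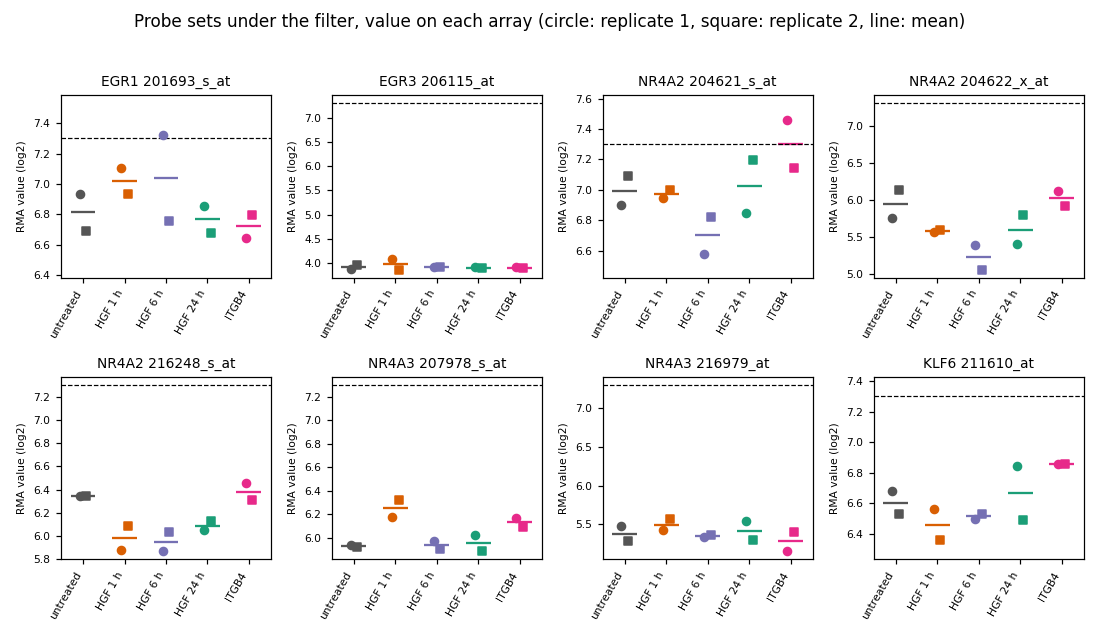
Log2 expression (vertical axis, with its own range in each panel) of the 8 member probe sets under the threshold in the 5 groups (horizontal axis), with a point for each array and a bar for each group mean. EGR3 stays between 3.86 and 4.07, and the 6 h arrays of the 3 NR4A2 probe sets lie below both untreated arrays.

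The genes around the members were counted from lists written from general knowledge, a gene counting as called where any of its tested probe sets was. Of the partners of EGR and NR4A proteins, the corepressors NAB1 and NAB2 and the NR4A partners RXRA, RXRB and RXRG, all 5 were tested and 0 were called against untreated cells at any time. RXRB (-0.37) and RXRG (-0.50) were lower at 6 than at 1 h, where 8.15% of all tested genes were lower, and RXRB was higher again at 24 than at 6 h (0.47), where 8.15% were higher. The count at 6 against 1 h was 0 without either untreated array, the first 1 h array or either 6 h array, and 1 without either 24 h array. The call at 24 against 6 h was lost when any single array of those 2 groups was left out. Of 18 paralogs, 14 had a probe set and 7 were tested. KLF2, a shear-responsive Krüppel-like factor, rose by 0.46 at 1 h, where 0.814% of all tested genes were higher. It fell by 0.49 from 1 to 6 h, where 8.15% were lower. KLF3 was higher at 24 than at 6 h (0.39), where 8.15% were higher. Of the fits that left out an array, 2 of 10 called a paralog higher at 1 h, those without an ITGB4 array. No paralog was lower at 6 against 1 h without the first 1 h array or either 6 h array, and none was higher at 24 against 6 h without an untreated, 6 h or 24 h array.

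The pathway from MET to these promoters had 16 tested genes of 25 listed. At 1 h 0 were higher and 2 lower, ELK3, a ternary complex factor (-0.90), and RPS6KA5, a kinase that acts on CREB (-0.69), where 6.45% of all tested genes were lower. At 6 h HRAS (0.72) and SRF, which binds the CArG box (0.59), were higher and RPS6KA2, an ERK-dependent kinase, was lower (-1.28), where 4.73% of all genes were higher and 2.97% lower. Between 24 and 6 h 2 were higher and 4 lower, the latter being MET (-0.70), HRAS, ELK3 and SRF, against 8.15% and 14% of all genes. Between 6 and 1 h 3 were higher and 2 lower, against 13.5% and 8.15%. Fewer of these genes were called between times when any single array of the groups compared was left out, as over all tested probe sets. No gene of this list was called at 1 h or at 6 h against untreated cells without either untreated array, nor at 1 h without the first 1 h array, nor at 6 h without either 6 h array. At 24 h and in ITGB4 cells 0 were called. RPS6KA5, SRF and RPS6KA2 were called against untreated cells on 1 of 2 tested probe sets each. MET was called, at 24 against 6 h, on 1 of 3.

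Other early-response genes had 39 tested of 55 listed. At 1 h 5 were higher and 0 lower, where 0.814% of all tested genes were higher and 6.45% lower. RHOB, a small GTPase (1.03), and JUN (0.71) led the 5. At 6 h 9 were higher, against 4.73% of all genes, led by FOSL1, an AP-1 subunit (1.59), and CXCL8, a chemokine (1.42). The 3 lower there, against 2.97% of all genes, were MAFF (-0.81), BTG1 (-0.66) and JUND (-0.60). BTG1, with 2 tested probe sets, and JUND, with 3, were called there only on that of highest mean. The lower calls at 6 h were lost without an untreated or a 6 h array, where calls over all tested probe sets also fell. From 6 to 24 h 16 were lower and 5 higher, against 14% and 8.15% of all genes. Leaving out single arrays moved these counts to between 0 and 6 higher at 1 h, between 0 and 12 higher at 6 h and between 6 and 16 lower at 24 against 6 h. JUNB and NFKBIA were called at both 1 and 6 h, as IER2 was. Of 13 genes described as bound by EGR1, 5 were tested, and the only one called was CD44, an adhesion receptor. It was higher at 24 than at 6 h, where 8.15% of all tested genes were higher. Of its 6 tested probe sets, only those with differences of 0.51 and 0.43 were called, and neither had the highest mean level. The CD44 call was lost without either 6 h array or the second 24 h array.

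Genes with the most similar profile were sought for the 3 members whose tested probe sets varied most over the 10 arrays, by the root mean square distance between values taken from each gene's own untreated mean. For IER2, whose own distance from its untreated mean was 0.375, the nearest were GEMIN4 at 0.0802, ZNF593 at 0.11 and RABGGTA at 0.113. GEMIN4 differed from untreated cells by 0.40 at 1 h, 0.60 at 6 h and -0.17 at 24 h. For IER3 (own distance 0.372) they were MARCKSL1 at 0.194, ADNP2 at 0.199 and CREM at 0.214. For EGR1 (own distance 0.941) the nearest, SLC67A1-AS, TMEM185B and FERRY3, lay at 0.591 to 0.635, farther in relation to its own distance than for IER2. The distances are over single arrays, so the spread between duplicates enters them, with a pooled SD of 0.721 for EGR1 and 0.124 for IER2. How much of the EGR1 distance comes from that spread was not tested.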

How the data were processed

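RNA of 10 MDA-MB-435 samples in 5 groups was measured on Affymetrix arrays, 1 array each. The deposited values are log2 expression values that the authors obtained with RMA (the affy package per the labels, version not given in the sources used here), which corrects background, normalizes between arrays and summarizes probes into probe sets. No raw intensity was used. Low values compress under RMA, so differences of dim probe sets are understated, and with so few arrays the precision is limited.

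Symbols came from the platform annotation: apart from 68 control probe sets, 19065 had a single symbol, 1043 several and 2107 none. Probe sets whose second-highest value was at least 7.3 (10176) were fitted in R 4.3.3 with limma 3.58.1, a mean per group over all arrays, with 5 residual degrees of freedom and a prior of 5.94 degrees of freedom and an SD of 0.144. The filter stands in for the authors' presence calls. P-values were adjusted (Benjamini-Hochberg) within each of 7 comparisons. P-values weigh a group difference against the spread within groups of these samples, which limma draws toward its prior. The study's own Mulcom statistic was not run. The fit was tested on simulated data.

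The members, gene lists and tests were chosen with earlier results of these data known. Text names all members, from each list at most 4 called genes each way per comparison with the largest differences (and JUNB and NFKBIA, chosen after their values were seen), and the 3 nearest profiles of the 3 most variable members. Alternatives were no filter, a stricter one of 8, median centring, cyclic loess, a mean per gene, the spread of 2 groups alone, a replicate block, adjustment over all comparisons together and leaving out each array.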

Additional observations from a re-analysis of the deposited data

Results flagged for a closer look

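Levels of 3 members differed between HGF time points by a direct test of the difference. No time-matched untreated group was among the arrays, so an effect of HGF cannot be told apart from one of harvest time. NR4A1 202340_x_at differed by -0.74 on the log2 scale at 6 against 1 h, and NR4A1 211143_x_at by -0.41. EGR1 201694_s_at differed by -1.84 and IER2 by -0.73 at 24 against 6 h. All arrays of the later time lay below those of the earlier time in these 4 cases. Groups of 2 arrays do not allow a check for a single outlying array.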

How the results depend on the processing

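No called member difference changed sign under any alternative. Signs of differences that were not called were not compared across the alternatives. Of the 10 member probe sets, 2 were called at 1 h against untreated cells. This count was 1 with no filter, 1 after cyclic loess, 1 with a mean per gene, 1 with a spread taken from only the 2 groups and 1 with p-values adjusted over all comparisons together, and 0 to 2 with single arrays left out. IER2 lost its call there with no filter (adjusted p = 0.0511), after cyclic loess (0.0554), with the 2 groups alone (0.0689) and with joint adjustment (0.0819). At 6 h the count of 1 became 2 with no filter, through NR4A2, and 0 with joint adjustment, and was 0 to 1 with arrays left out. Between 6 and 1 h the count of 2 became 1 with no filter, 1 with the stricter filter, 1 with joint adjustment and 0 to 2 with arrays left out. It was 3 with median centring and with cyclic loess, through NR4A3, which was also called with a mean per gene. NR4A3 passed the threshold only through its 1 h arrays, so its calls against 1 h, here and in later counts, are a description. With the 2 groups alone IER3 was called in place of the second NR4A1 probe set. Between 24 and 6 h it stayed at 2 or 3, and at 1 to 2 with arrays left out. Between 24 and 1 h the count of 0 became 1 (EGR1) with the 2 groups alone, 5 with joint adjustment (EGR1, NR4A1, NR4A3, IER2 and IER3) and 0 to 2 with arrays left out. At 24 h and in ITGB4 cells it was 0 under all alternatives run. The cause of these moves was not tested. The filter and the joint adjustment change how many tests share the adjustment.

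Replicate numbers were not taken to pair the arrays, because not every pair of groups had a correlation of same-numbered deviations over 0.1. Of 10 pairs of groups, 8 did, and the correlations ranged from -0.14 to 0.461. With the replicate number as a block, 4 member probe sets were called between 6 and 1 h (NR4A3 and KLF10 joining NR4A1), 3 between 24 and 6 h (KLF10 joining) and 1 between 24 and 1 h (NR4A1).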
